A study of Mus musculus with 11 samples.

Results

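Imprinted genes were examined in the hippocampus of F1 mice whose mothers had eaten a control or a folic acid-rich diet before mating. A list of 43 mouse genes with well-known parent-of-origin expression was drawn up by imprinted cluster, and each was looked up by its Ensembl identifier among the 38293 genes of the count tables. Of these, 40 were present and 39 reached a total of at least 10 counts over all mice, so that the results below refer to these 39 of 20589 genes tested. At the edge of that limit, H19 (38 counts in all) was the weakest gene retained, and Phlda2, with 1 count in 1 mouse (CD male 3), was left out. Kcnq1ot1, Peg13 and Snrpn were not analysed here under their current identifiers. A gene that overlaps Snurf and Snrpn (ENSMUSG00000000948) was read in place of Snrpn, outside the counts of members.

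All animals were wildtype offspring of 129S6/SvEv dams and C57BL/6J sires and were 14 weeks old. The CD group (6 mice, of which 3 were male) came from dams kept on chow with 2.3 mg folic acid per kg. The FD group (5 mice, of which 2 were male) came from dams that received 40 mg per kg before mating only, with control chow given to all animals from mating onwards. RNA was taken from whole hippocampus and comprises every cell type in it. Each library is a separate mouse, but the litter of each mouse is not given in the labels, so that the p-values describe the spread between mice and not between dams.

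Imprinted genes are transcribed from a single parental copy, either the maternal or the paternal one, because a methylation mark set in the egg or in the sperm survives fertilisation and silences or activates genes of the cluster. Most such marks are laid down while oocytes grow, whereas those of H19-Igf2 and Dlk1-Dio3 come from sperm. The zinc finger protein ZFP57 keeps the marks in the early embryo by binding the methylated hexamer TGCCGC. Many imprinted genes are active in brain, where they take part in growth, neuronal differentiation and behaviour. Total counts per gene cannot separate the parental copies, so a gain of the silent copy and a stronger active copy cannot be told apart here. In bulk tissue, fewer cells of a type and less RNA per cell cannot be told apart either.

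Between 11737554 and 44447006 reads per mouse were assigned to genes, and values are given as CPM, counts scaled to library size after normalisation by trimmed mean of M-values (TMM). At these depths 3 counts correspond to 0.0675 to 0.256 CPM per mouse. Uniquely aligned reads that the counting assigned to no feature are called reads outside genes below. Whether they lay in introns or between genes is not given. Their share of the reads on genes, without feature, ambiguous or aligned to several places ran from 7.01% to 11.03%. It was 8.95% to 11.03% in males (median 10.4%) and 7.01% to 10.53% in females (median 8.75%), so that the sexes overlapped. Hippocampal neuron markers summed to between 6585 and 7836 CPM in every mouse. The choroid plexus list was highest in CD female 3 (100.4 CPM in sum) and CD male 2 (69.9 CPM), against 35.6 to 56.6 CPM elsewhere. The counts of each pair of mice within a group differed by more than sampling noise.

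The members spanned a wide range of levels. Per length of exon, Nnat, a small membrane proteolipid of differentiating neurons, and Nap1l5, a nucleosome assembly protein-like gene, were highest, at 164.2 and 162.4 RPKM (reads scaled to exon length and library size), which differ by less than the spread between mice (coefficients of variation 10.7% and 4.06%). Next came the noncoding RNA Meg3 at 137.9 RPKM, followed by Ndn at 43.7 RPKM and Impact at 41.9 RPKM. The Snurf-Snrpn locus gene reached 127.1 RPKM. At the other end, Asb4 (0.142 RPKM) and H19 (0.0655 RPKM) were barely detected, and H19 was at 0 counts in 1 mouse (CD female 3). Meg3 alone made up between 27.0% and 47.6% of the members' summed CPM. The most even member across the 11 mice was Nap1l5, and the most variable were H19 (72.1%) and Igf2 (57.8%).

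The main question was whether the maternal diet altered the level of these genes, since the diet was given while the oocytes, and with them the maternal imprints, were maturing. With maternal diet as the only term, none of the 39 members passed the quasi-likelihood test of edgeR at an adjusted p-value of 0.1, where 14 of 20589 genes (0.068%) did. DESeq2 called 0 members as well. At an unadjusted p below 0.05 there was 1 member, Zim1, against 2.59% of all genes. With same-numbered mice of the same sex as a replicate block, 12 of 39 members were below that level (10 higher and 2 lower in FD), against 6.78% of all genes, while 0 members passed the adjusted threshold. The 12 were Peg3, Zim1, Magel2, Ndn, Ube3a, Igf2, Peg10, Dlk1, Meg3, Mirg, Dio3 and Gnas, with log2 fold changes in that fit from -0.33 for Ndn to 0.58 for Zim1 and adjusted p-values from 0.123 to 0.725. CD male 3 has no counterpart in that fit and does not contribute to it. The labels name no pairing of mice between the groups, so that the block rests on shared numbers only. With sex as covariate in place of the block, only Zim1 (0.00625), Gnas (0.0252) and Magel2 (0.0449) had an unadjusted p below 0.05 in edgeR. None of them passed the adjusted threshold in that fit. The members were measured in the same mice and are not independent of each other. In none of the 39 members were the FD and CD mice fully apart, as they were in 0.505% of all genes. By sign, 24 members had a higher and 15 a lower mean level in FD mice, with a median log2 fold change of 0.023 (all genes, -0.004). Without regard to sign the median was 0.072, beside 0.070 for all genes. When only genes averaging 1 CPM or higher were kept (36 members, 14437 genes in all), these medians were 0.072 and 0.048. At that level 61.1% of the members and 44.7% of all genes were higher in FD mice. This contrast of the members with other genes was not tested. The 95% interval of the difference lay within 0.5 log2 units of 0 for 27 of 39 members and within 1 log2 unit for 37, the exceptions being H19 and Igf2.

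**Figure D1:**
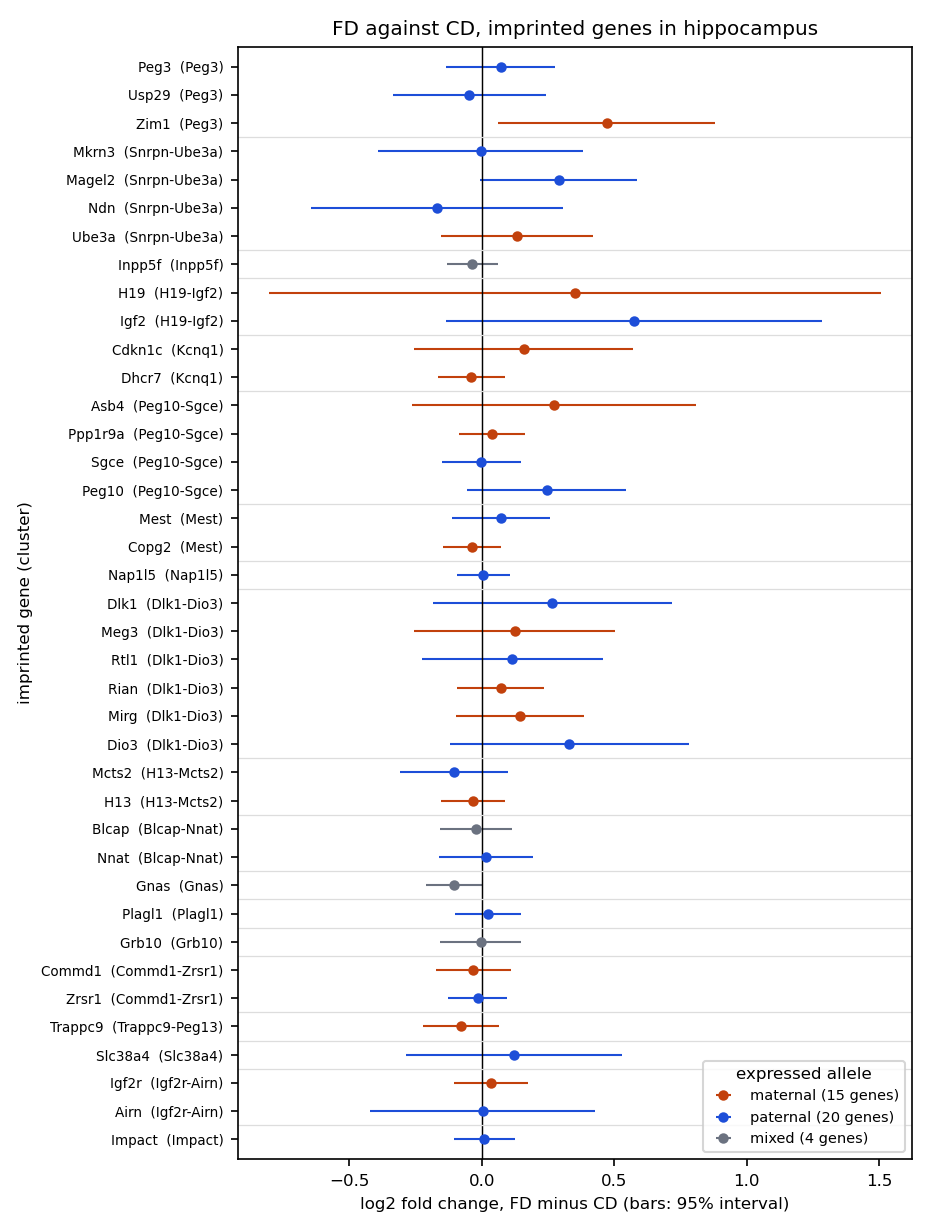
Log2 fold change of FD over CD mice (x axis, points, with 95% intervals as bars) for the 39 imprinted genes in order of cluster (y axis), coloured by the allele listed as expressed. The interval of Zim1 alone leaves out 0, and none of the genes passed the adjusted threshold.

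Split by the allele listed as active, the 15 maternally expressed genes had a median log2 fold change of 0.072 (10 higher in FD), the 20 paternally expressed genes 0.020 (14 higher), and the 4 genes listed with isoform- or tissue-dependent expression -0.028 (0 higher). Which copy of each gene was active in these hippocampi was not measured, and a listed allele need not hold in every tissue. Split by the germline that sets the mark, the 8 genes of the sperm-marked clusters were all higher in FD mice, with a median of 0.21, whereas the 31 oocyte-marked genes were divided into 16 higher and 15 lower, with a median of 0.0031. Of all genes tested, 48.2% were higher in FD mice. The 8 genes lie in only 2 clusters and share mice and, in part, transcripts, so they are not 8 independent observations, and none of them passed the test. Their signs also hung on few mice. The sign turned for H19 without FD male 2, for Meg3 without CD female 1, and for Dlk1 without CD male 2 and CD female 3.

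In the Peg3 cluster on chromosome 7, the paternally expressed zinc finger gene Peg3 and the ubiquitin protease gene Usp29 are read in opposite directions from a shared start region, and the zinc finger gene Zim1 is expressed from the maternal copy. RefSeq promoter windows (GRCm38.p6, 250 bases before to 50 after the start) were found for 32 of the 39 members, and not for Cdkn1c, H19, Impact, Peg10, Rtl1, Sgce and Trappc9. The windows of Peg3 and Usp29 shared 263 of 300 bases. Those of Peg3 (chr7:6730370-6730669, minus strand), Zim1 (chr7:6696383-6696682, minus strand) and Igf2r (chr17:12769657-12769956, minus strand) are printed because Zim1 had the smallest p between the diets, and Peg3 and Igf2r passed the threshold between the sexes. Capitals mark CpG pairs, the sites at which imprints are methylated.
Peg3: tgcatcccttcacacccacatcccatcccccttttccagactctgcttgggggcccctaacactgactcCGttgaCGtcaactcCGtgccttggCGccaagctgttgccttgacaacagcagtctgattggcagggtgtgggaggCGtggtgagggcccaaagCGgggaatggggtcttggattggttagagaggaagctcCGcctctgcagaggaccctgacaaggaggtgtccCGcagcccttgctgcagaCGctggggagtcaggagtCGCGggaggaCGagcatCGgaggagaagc
Zim1: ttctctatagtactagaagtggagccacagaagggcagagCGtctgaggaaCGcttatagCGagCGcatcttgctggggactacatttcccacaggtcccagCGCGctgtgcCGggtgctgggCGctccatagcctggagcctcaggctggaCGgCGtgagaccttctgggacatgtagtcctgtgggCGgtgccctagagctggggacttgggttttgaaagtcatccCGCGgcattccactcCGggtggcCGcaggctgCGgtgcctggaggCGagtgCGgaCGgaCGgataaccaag
Igf2r: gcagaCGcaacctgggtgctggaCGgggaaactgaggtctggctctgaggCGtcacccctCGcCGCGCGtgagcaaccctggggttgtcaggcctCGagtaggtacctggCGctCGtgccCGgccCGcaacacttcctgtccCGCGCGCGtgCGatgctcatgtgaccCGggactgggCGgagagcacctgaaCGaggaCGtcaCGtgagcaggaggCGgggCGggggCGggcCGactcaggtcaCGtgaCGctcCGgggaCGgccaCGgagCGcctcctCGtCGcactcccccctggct
The Peg3 window held 13 CpG pairs, that of Zim1 20 and that of Igf2r 34. Over the 32 member windows the median was 15.5, against 7 in 32851 windows of the same length. The hexamer TGCCGC, searched on both strands, was present in 9 of the 32 member windows (28.1%) and in 11.6% of all windows. Of the printed windows it occurred in that of Zim1 only. The hexamer itself holds a CpG pair, so its share is not independent of the CpG content of the windows. For each gene the window nearest to the GENCODE start was used, and it lay up to 30328 bases from that start (Plagl1). The CpG and hexamer counts describe the letters in the windows and carry no information on methylation in these mice.

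Zim1 was the member with the smallest p for maternal diet. Its level was 4.74, 5.18, 2.90, 5.76 and 4.31 CPM in the FD mice (females 1 to 3, males 1 and 2), and ran from 2.06 over a median of 3.62 to 4.35 CPM in the CD mice. The groups overlapped, since FD female 3 lay below 4 of the CD mice. The means were 4.58 ± 1.08 CPM (SD, n = 5) and 3.29 ± 0.92 CPM (SD, n = 6), a log2 fold change of 0.47 ± 0.19 (SE) with an adjusted p of 1. In number of reads this gene rests on between 31 and 166 counts per mouse. Peg3 (log2 fold change 0.071 ± 0.097) and Usp29 (-0.048 ± 0.14) lay close to 0 between the diets.

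Across the 11 mice, Usp29 and Peg3 varied together, with a Pearson r of 0.731 (permutation p = 0.00662, adjusted 0.0170 over 18 relations) and a Spearman rho of 0.791 (permutation p = 0.00557, adjusted 0.0201). With diet and sex means removed r was 0.531, and without the mice farthest out on the x axis (CD female 3 and CD male 1) it was 0.868.

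In the Dlk1-Dio3 cluster on chromosome 12, the paternal copy expresses Dlk1, a transmembrane ligand related to the Notch ligands, the retrotransposon-derived gene Rtl1 and the deiodinase gene Dio3, which inactivates thyroid hormone. The maternal copy expresses the noncoding RNAs Meg3, Rian and Mirg, which host small nucleolar RNAs and microRNAs. All 6 members had a higher mean in FD mice, with log2 fold changes from 0.072 to 0.33 and none passing the test. Dio3 was 6.15 ± 0.38 CPM (SD, n = 5) in FD and 4.78 ± 1.96 CPM (SD, n = 6) in CD mice, a log2 fold change of 0.33 ± 0.21 (adjusted p = 1). Dlk1 was 14.8 ± 1.09 CPM (SD, n = 5) in FD and 12.1 ± 4.73 CPM (SD, n = 6) in CD mice, a log2 fold change of 0.27 ± 0.21 (adjusted p = 1).

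The spread within the CD group came from 2 mice, which were singled out after their values were seen. Dlk1 was at 5.56 CPM in CD male 2 and at 6.66 CPM in CD female 3, whereas the other mice of both groups lay between 13.5 and 16.5 CPM. Dio3 was at 2.49 and 2.46 CPM in the same animals, with the others between 4.55 and 7.13 CPM. Peg10, a retrotransposon-derived gene on chromosome 6 that is also paternally expressed, was at 24.7 and 18.6 CPM in them and between 33.6 and 41.0 CPM in the others. Thus 3 paternally expressed genes from 2 chromosomes were low in the same pair of control mice, which were also those with the highest choroid plexus markers. The part of these markers in the result was not tested. Without both mice, the log2 fold change of FD over CD was -0.029 ± 0.084 for Dlk1, 0.056 ± 0.12 for Dio3 and 0.043 ± 0.070 for Peg10, and the median over the 39 members was 0.0003. Since these mice were the lowest for the 3 genes, leaving them out had to reduce the difference, and the values show only how much of it came from them. With all mice, Peg10 had been 37.8 ± 2.62 CPM (SD, n = 5) in FD and 31.7 ± 8.23 CPM (SD, n = 6) in CD mice, a log2 fold change of 0.24 ± 0.14 (adjusted p = 1).

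**Figure D2:**
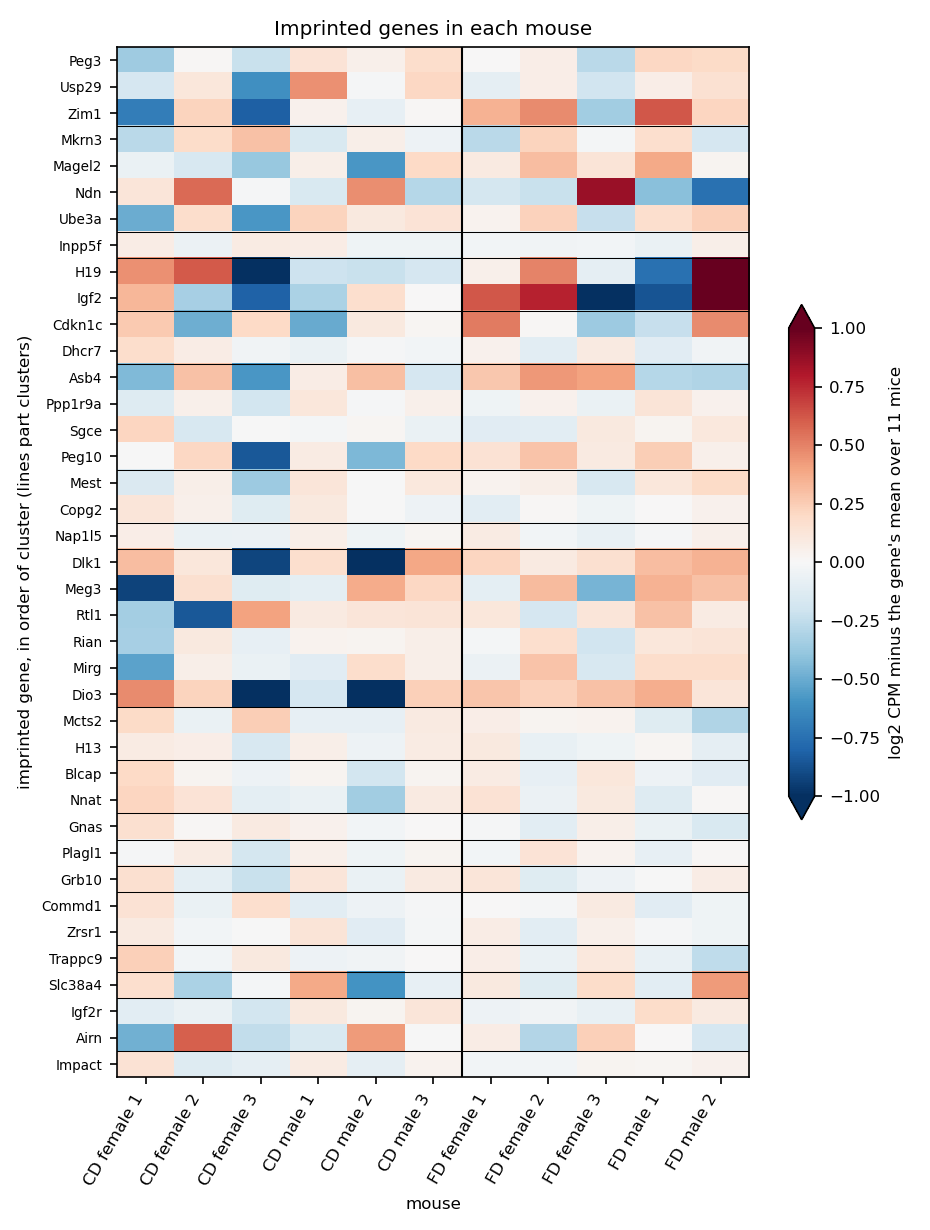
Deviation of each imprinted gene (rows, in order of cluster) from its own mean over 11 mice, in log2 CPM, for each mouse (columns; the vertical line parts CD from FD). Dlk1, Dio3 and Peg10 are low in CD male 2 and CD female 3, and Igf2 and H19 are highest in FD male 2.

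The maternal RNAs of this cluster varied together across mice. Meg3 was at 2263, 3007, 1755, 3070 and 2960 CPM in the FD mice (females 1 to 3, males 1 and 2), and at 1272, 2479 and 3127 CPM as lowest, median and highest of the CD mice. The groups overlapped over nearly their whole range, with a log2 fold change of 0.12 ± 0.18 (adjusted p = 1) that became -0.0052 without CD female 1, the lowest mouse. Mirg was 16.3 ± 2.05 CPM (SD, n = 5) in FD and 14.7 ± 2.33 CPM (SD, n = 6) in CD mice, a log2 fold change of 0.14 ± 0.11 (adjusted p = 1) that became 0.056 ± 0.091 without CD female 1. Rian was at 0.072 ± 0.078 on the same scale. Meg3 and Mirg were correlated across mice with r = 0.969 (permutation p = 2e-05, adjusted 0.00018) and rho = 0.909 (permutation p = 0.00019, adjusted 0.00171), and r stayed at 0.957 without CD female 1 and FD female 2. For Rian and Meg3 r was 0.948 (permutation p = 9e-05, adjusted 0.000324; rho 0.755, permutation p = 0.00987, adjusted 0.0289), and 0.761 without CD female 1 and FD female 3. Removing diet and sex means left 0.986 and 0.930. Dlk1, read from the other parental copy, did not follow Meg3 to a degree that could be measured (r = -0.181, permutation p = 0.599, rho = -0.036, permutation p = 0.924).

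These RNAs also followed the share of reads outside genes (assigned to no feature), a relation added after the data had been seen. What sets this share in a library was not tested, nor was its part in the relations among these RNAs. For Meg3 r was 0.968 (permutation p = 1e-05, the smallest that could be given, adjusted 0.0004 over 40 relations) and rho 0.964 (permutation p = 2e-05, adjusted 0.0008). For Mirg r was 0.953 (adjusted permutation p = 0.0004, rho 0.909) and for Rian 0.881 (adjusted permutation p = 0.0034, rho 0.782). Without CD female 1 and CD male 2 the coefficients were 0.963, 0.953 and 0.904. The share had a median of 10.4% in FD (8.18% to 10.53%) and 9.24% in CD mice (7.01% to 11.03%). With it as covariate, the log2 fold change of FD over CD was 0.014 ± 0.056 for Meg3, 0.0875 ± 0.060 for Mirg and 0.027 ± 0.047 for Rian. The part of the share in the diet differences was not tested. Blcap (r = -0.914) and Gnas (r = -0.830) ran the opposite way. Of the 36 members with a mean of at least 1 CPM, 11 (30.6%) had an absolute r of at least 0.7 with this share, compared with 21.1% of all genes at that level, and 3 (8.33%) had one of at least 0.9, compared with 2.04%. These shares describe genes within the same 11 libraries and carry no test.

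**Figure D3:**
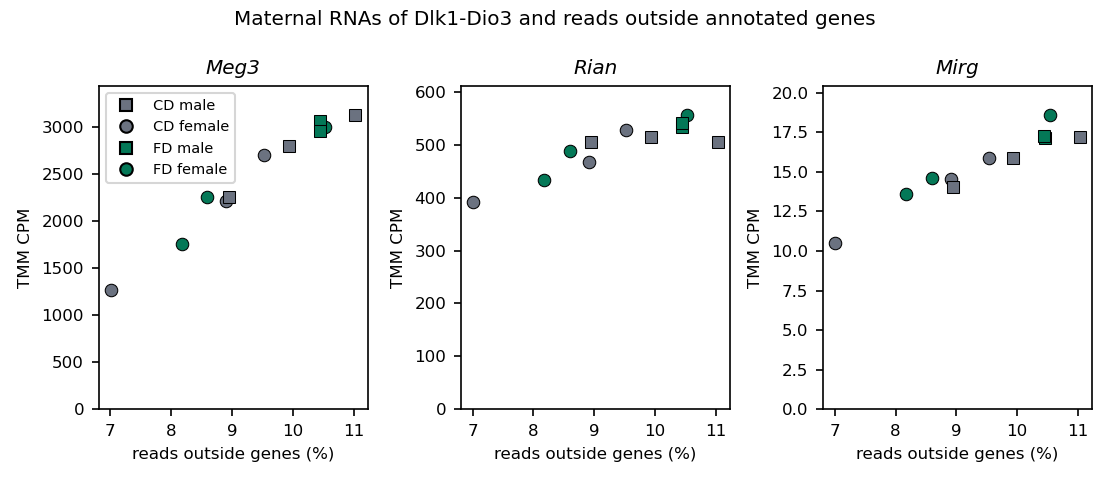
TMM CPM of Meg3, Rian and Mirg (y axes) against the percentage of reads assigned to no feature (x axes, reads outside genes) in 11 mice. Squares stand for males, circles for females, grey for CD and green for FD. All 3 RNAs are lowest in CD female 1, which also has the lowest share of such reads (7.01%).

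In the H19-Igf2 cluster, Igf2 encodes the growth factor IGF2, which in adult brain is known mainly from meninges, vessels and choroid plexus, and H19 is a maternally expressed noncoding RNA. Igf2 was at 80.3, 88.8, 25.7, 28.6 and 142.5 CPM in the FD mice (females 1 to 3, males 1 and 2). The CD mice ran from 29.8 over a median of 47.1 to 65.7 CPM. The FD mice therefore included both the 2 lowest and the 3 highest values of the series. The log2 fold change was 0.57 ± 0.34, with a 95% interval from -0.14 to 1.29 and an adjusted p of 1, and it was 0.20 ± 0.30 without FD male 2, 0.78 ± 0.31 without FD male 1 and 0.80 ± 0.28 without FD female 3. H19 had at most 7 counts in any mouse, and its difference of 0.35 ± 0.55 could not be resolved at this depth.

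The level of Igf2 tracked 15 meningeal fibroblast markers. The mean log2 CPM of these markers and Igf2 had r = 0.985 (permutation p = 1e-05, the smallest that could be given, adjusted 0.00018 over 18 relations) and rho = 0.964 (permutation p = 3e-05, adjusted 0.00054), and r = 0.981 without FD male 2 and CD female 3. Removal of diet and sex means left r at 0.993. Of all genes with at least 1 CPM, 0.423% had an absolute r of 0.9 or more with these markers, and among the members Igf2 was the only one. With the choroid plexus list Igf2 had r = -0.072 (permutation p = 0.835, rho = -0.009, permutation p = 0.990), and r = 0.491 without CD female 3 and FD female 2. The meningeal markers themselves were higher in FD mice in 15 of 15 genes (median log2 fold change 0.36, 0 called), with a summed level of 170.0 to 373.1 CPM in FD and 130.2 to 264.4 CPM in CD mice. Vascular markers were higher in FD mice in 14 of 15 genes (0 called). With the meningeal markers as a covariate, added after the data had been seen, the diet difference of Igf2 was 0.012 ± 0.078. Since the markers tracked Igf2 so closely and were higher in FD mice, that fit had to leave little difference. The part of meningeal tissue in the Igf2 difference was not tested. H19 and Igf2 had r = 0.744 (permutation p = 0.00803, adjusted 0.0181) and rho = 0.600 (permutation p = 0.0553, adjusted 0.111), which dropped to r = 0.527 without CD female 3 and FD male 2.

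**Figure D4:**
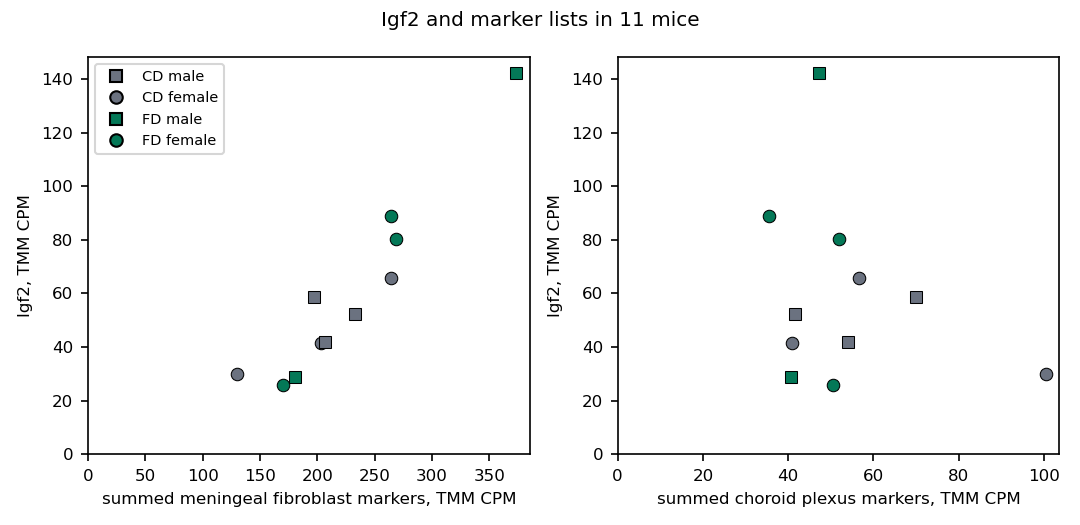
Igf2 (y axis, TMM CPM) against the summed TMM CPM of 15 meningeal fibroblast markers (left) and of 15 choroid plexus markers (right) in 11 mice, with squares for males, circles for females, grey for CD and green for FD. Igf2 rises along the meningeal list up to FD male 2 (142.5 CPM) and shows no such order along the choroid plexus list.

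In the Snrpn-Ube3a cluster, the region of the Prader-Willi and Angelman syndromes, Ndn and Magel2 encode paternally expressed MAGE proteins, Mkrn3 a paternally expressed ring finger protein, and Ube3a a ubiquitin ligase that neurons express from the maternal copy. Magel2 was at 3.26, 3.81, 3.35, 3.998 and 3.11 CPM in the FD mice (females 1 to 3, males 1 and 2), and at 2.01, 2.83 and 3.52 CPM as lowest, median and highest in the CD mice. Magel2, like Dlk1, Dio3 and Peg10, thus had their lowest CD value in CD male 2 or CD female 3. The Magel2 difference of 0.29 ± 0.14 (adjusted p = 1) had a 95% interval that reached from -0.007 to 0.59. Ndn, the member of this cluster with the highest level per length, was 150.7 ± 74.3 CPM (SD, n = 5) in FD and 170.3 ± 40.8 CPM (SD, n = 6) in CD mice, a log2 fold change of -0.17 ± 0.22 (adjusted p = 1). This value moved with single mice: it was -0.52 ± 0.15 without FD female 3 (adjusted p = 0.851) and -0.034 ± 0.22 without FD male 2, and -0.092, -0.070 and -0.084 without CD male 2, CD female 2 and FD male 1. It was -0.59 ± 0.16 in males alone and 0.0082 ± 0.25 in females alone, neither past the adjusted threshold. Ube3a (0.13 ± 0.14) and Mkrn3 (-0.004 ± 0.18) did not pass either. The Snurf-Snrpn locus gene was 642.6 ± 40.4 CPM (SD, n = 5) in FD and 680.1 ± 51.3 CPM (SD, n = 6) in CD mice (-0.082 ± 0.059, adjusted p = 1).

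Ube3a and the Snurf-Snrpn locus gene, which are active on opposite parental copies, went in opposite directions from mouse to mouse, with r = -0.935 (permutation p = 8e-05, adjusted 0.000324) and rho = -0.836 (permutation p = 0.00234, adjusted 0.0105). Without CD female 3 and CD female 1, the mice lowest in Ube3a (60.8 and 64.7 CPM), r was -0.796, and with diet and sex means removed it was -0.898. Both genes also followed the share of reads outside genes, Ube3a with r = 0.709 and the locus gene with r = -0.834, and the part of that share in their relation was not tested. Magel2 and Ndn, both paternal neighbours, had r = -0.427 (permutation p = 0.188, rho = -0.527, permutation p = 0.1003).

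In the Peg10-Sgce cluster, Peg10 and Sgce, which encodes epsilon-sarcoglycan, start head to head on the paternal copy. No joint variation was measurable (r = -0.208, permutation p = 0.539, rho = -0.509, permutation p = 0.114). Sgce was nearly the same in both groups, at 28.4 ± 2.06 CPM (SD, n = 5) in FD and 28.3 ± 2.50 CPM (SD, n = 6) in CD mice. Ppp1r9a, which encodes the actin-binding protein neurabin and had the highest level per length in this cluster, was at 360.3 ± 19.4 CPM (SD, n = 5) in FD and 351.0 ± 27.5 CPM (SD, n = 6) in CD mice, a log2 fold change of 0.038 ± 0.059 (adjusted p = 1). Asb4, a low member, was at 0.27 ± 0.25.

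Gnas, which encodes the stimulatory G protein alpha subunit and imprinted variants of it, was the only one of the 8 members with the smallest p values that was lower in FD mice. It was at 196.5, 183.9, 206.0, 189.1 and 178.3 CPM in the FD mice (females 1 to 3, males 1 and 2), and at 194.6, 202.4 and 221.4 CPM as lowest, median and highest in the CD mice. The log2 fold change was -0.10 ± 0.051, with a 95% interval from -0.21 to 0.003 and an adjusted p of 1. Of its exon bases 22% overlap genes on the opposite strand, and the strand setting of the counting is not given in the sources used here.

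The remaining clusters gave small differences between the diets. On the log2 scale the differences were -0.021 for Blcap and 0.017 for Nnat, which lies in an intron of Blcap, -0.032 for H13 and -0.10 for Mcts2, a retrogene within H13, and -0.032 for Commd1 and -0.015 for Zrsr1, a retrogene inside Commd1. The paternally expressed hydrolase gene Mest was at 0.072 and its maternal neighbour Copg2 at -0.037, with 23.1% of the exon bases of Mest shared with Copg2 on the other strand. Igf2r, the receptor that clears IGF2, was at 0.034, and Airn, the antisense RNA that silences it on the paternal copy, at 0.0031. In the Kcnq1 cluster, the cell cycle inhibitor Cdkn1c was at 0.16 and Dhcr7, an enzyme of cholesterol synthesis, at -0.040. Single genes of their region were Nap1l5 (0.0063), Impact (0.010), Plagl1 (0.023), Grb10 (-0.0036), Inpp5f (-0.036), Trappc9 (-0.078) and Slc38a4 (0.12). Among the neighbours, Blcap and Nnat varied together with r = 0.845 (permutation p = 0.00135, adjusted 0.00405) and rho = 0.745 (permutation p = 0.0112, adjusted 0.0289), and with r = 0.665 without CD male 2 and CD female 1. No such relation was measurable for Copg2 and Mest (r = 0.390, permutation p = 0.237, rho = 0.427), Mcts2 and H13 (r = 0.049, permutation p = 0.886, rho = 0.282) or Zrsr1 and Commd1 (r = 0.217, permutation p = 0.517, rho = 0.282).

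Since both groups held both sexes, males and females were compared with maternal diet in the model. Peg3 and Igf2r, 2 of the 39 members, were higher in males at an adjusted p-value of 0.1 and 0 were lower. This is near the background, since 6.11% of all genes passed, 3.07% higher and 3.03% lower in males. Peg3 was at 429.3, 405.4 and 441.8 CPM in the CD males and at 451.3 and 446.5 CPM in the FD males, whereas the females ran from 305.0 over a median of 364.3 to 409.4 CPM. Every male but CD male 2 lay above the highest female, FD female 2. The log2 fold change of males over females was 0.28 ± 0.066 (adjusted p = 0.0638). Igf2r was at 59.0, 56.3 and 60.01 CPM in the CD males and at 62.6 and 58.7 CPM in the FD males, and between 48.5 and 53.8 CPM (median 52.6) in the females. Its groups did not overlap, as in 1.78% of all genes and in no other member, and the log2 fold change was 0.20 ± 0.046 (adjusted p = 0.0638). Usp29, which shares its start region with Peg3, had the next smallest p, with 16.6 ± 2.13 CPM (SD, n = 5) in males and 13.4 ± 2.24 CPM (SD, n = 6) in females, a log2 fold change of 0.33 ± 0.11 that missed the threshold (adjusted p = 0.108).

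Both calls rest on few animals. The adjusted p of Peg3 lay between 0.111 and 0.167 when CD male 1, CD female 1, CD male 2, CD female 3, FD male 2 or FD female 3 was left out, and that of Igf2r between 0.101 and 0.167 for the same mice, CD male 3 and FD male 1. Leaving out CD female 2 gave 12 called members and leaving out FD female 2 gave 9. The number of all genes called also moved widely with 1 mouse left out, as given in the last section. These counts of members are therefore not a result about imprinted genes. The share of reads outside genes differed between the sexes as well, and with it as a covariate the counts fell from 1257 to 9 for all genes and from 2 to 0 for the members. Since the share and sex were related in these mice, that fit cannot tell them apart. Under that covariate Peg3 was at 0.18 ± 0.070 (adjusted p = 0.638), Igf2r at 0.20 ± 0.056 (adjusted p = 0.559) and Meg3, at 0.39 ± 0.15 without it, at -0.040 ± 0.071. Peg3 itself had r = 0.798 with this share (adjusted permutation p = 0.0112, rho 0.736), and r = 0.750 without CD female 1 and CD male 2.

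**Figure D5:**
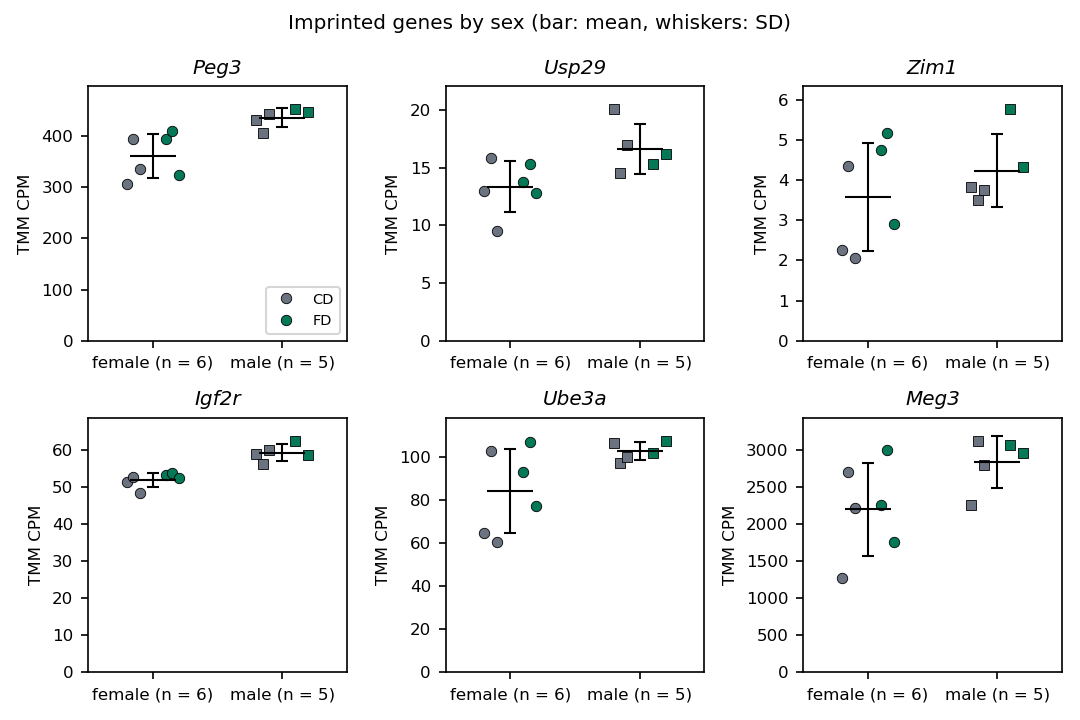
TMM CPM (y axes, from 0) of Peg3, Usp29, Zim1, Igf2r, Ube3a and Meg3 in 6 female (circles) and 5 male mice (squares), grey for CD and green for FD, with the mean and SD over each sex. Igf2r is higher in each male than in each female, and the others overlap between the sexes.

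Whether the diet difference itself depended on sex was tested as an interaction, which reached an adjusted p-value of 0.1 for none of the members and for none of all genes (0.0%) with edgeR, and for 0 with DESeq2. At an unadjusted p below 0.05 there was 1 member, against 1.9% of all genes. This was Asb4, with 5 to 23 counts per mouse and a difference of differences (males minus females) of -1.10 ± 0.51 log2 units.

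For comparison, other genes reported as imprinted, mostly in placenta or in single tissues, were read from the same fit. Of 40 listed, 35 were tested and 0 passed between the diets (19 higher and 16 lower in FD), the smallest p belonging to the potassium channel gene Kcnq1 (log2 fold change 0.56 ± 0.27, adjusted p = 1). Between the sexes Zdbf2 (0.37 ± 0.085, adjusted p = 0.0631) and Ago2 (0.31 ± 0.094, adjusted p = 0.0939) were higher and Tssc4 (-0.28 ± 0.068, adjusted p = 0.0665) lower in males, 3 of 35 genes beside the 6.11% of all genes. Of 12 genes that keep or copy methylation marks, 10 were tested and 0 passed between the diets, the smallest p being that of Smchd1 (0.083 ± 0.057, adjusted p = 1), a chromatin protein of the inactive X. Zfp57 was at 11.4 CPM in FD and 10.2 CPM in CD mice (0.15, adjusted p = 1). In males the zinc finger gene Zfp445 (0.36 ± 0.098, adjusted p = 0.0754), Arid4a (0.20 ± 0.058, adjusted p = 0.0840) and Arid4b (0.21 ± 0.065, adjusted p = 0.0925) were higher and Uhrf1 (-0.65 ± 0.21, adjusted p = 0.0981) was lower, 4 of 10 genes beside the 6.11% of all genes. All 4 lay near the threshold, the list is short, and the number of genes called between the sexes moved widely with 1 mouse left out. None of these 7 calls between the sexes remained with the share of reads outside genes as covariate (adjusted p from 0.572 to 0.830).

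Among the cell type lists no gene passed between the diets. The smallest p belonged to Ttr (log2 fold change -1.19) in choroid plexus, Ogn (0.60) in meninges, Pecam1 (0.14) in vessels, Aqp4 (0.10) in astrocytes, Mag (-0.12) in oligodendrocytes, C1qb (-0.068) in microglia and Prox1 (0.078) in hippocampal neurons, each with an adjusted p of 1.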

How the data were processed

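Hippocampal RNA-seq libraries of 11 mice were analysed. Per the labels and the study's methods, the authors trimmed single-end reads, aligned them with STAR to GRCm38 and deposited raw counts of uniquely aligned reads per Ensembl gene, counted with featureCounts and not normalized. Each file ends in 5 summary lines in HTSeq style. Neither the annotation release nor the strand setting is given in the sources used here. The summary lines were left out of library sizes. Reads outside genes made up 7.01% to 11.03%, ambiguous reads 1.38% to 1.50% and reads aligned to several places 13.7% to 16.0%. The base was the total of these classes and the reads on genes. Symbols and coordinates came from GENCODE M21 (94.9% of 38293 genes matched).

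Genes reaching 10 counts over all mice entered edgeR 4.0.16 (R 4.3.3, TMM, quasi-likelihood test, Benjamini-Hochberg adjustment over all genes, threshold 0.1). FD was set against CD in all mice without covariates, since the study's methods name none, males against females with maternal diet as covariate, and the interaction with both. SE is the log2 fold change divided by the root of F. DESeq2 1.42.0 was an alternative, as were RLE size factors, other filters on low counts, sex as covariate, each sex alone, a replicate block and leaving out each mouse. Covariates for reads outside genes and meningeal markers, the 40 relations with each, and leaving out the mice highest in choroid plexus markers were added after seeing the data. Relations across mice used log2 CPM with a prior count of 2 and 100000 permutations, two-sided, and Benjamini-Hochberg adjustment within each family. The edgeR fits were tested on simulated data. RPKM used exon lengths of GENCODE M21. The 95% intervals come from the model, and the depth per mouse limits them for genes with few counts.

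The members, gene lists and relations were chosen with earlier results of these data known. Genes given with full values are those past a threshold or with groups that do not overlap, the 8 with the smallest p for diet, the 3 for sex, and the highest per length in each cluster with at least 3 members. The lists were other imprinted genes, factors that maintain imprints, and markers of choroid plexus, meningeal fibroblasts, vessels, astrocytes, oligodendrocytes, microglia, hippocampal neurons and neighbouring regions (for the last, the gene with the smallest p is not reported here).

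Labels number the mice of each sex within a group. They name no pairing between the groups. Same-numbered mice of the same sex deviated together from their group means (r of 0.307 to 0.54 over 5 pairs), but with sex means also removed r was 0.005 to 0.386, so that the pairing in part reflects sex. Same-sex mice with different numbers had r from -0.063 (CD female 1 with FD female 2) to 0.526 (CD female 1 with FD female 3) before sex means were removed, which overlaps the same-numbered pairs.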

Additional observations from a re-analysis of the deposited data

Results flagged for a closer look

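Ndn, the paternally expressed MAGE gene of the Snrpn-Ube3a cluster, was at 280.0 CPM in FD female 3, apart from the other FD mice, whose next value was 135.9 CPM and whose lowest was 91.6 CPM. The gap made up 0.765 of the group's range, above Dixon's critical value for 5 samples. The 78 groups examined (39 genes in each diet group) would give about 3.9 such cases by chance at 1 in 20, so that 1 is fewer than chance gives. Without this mouse the log2 fold change of FD over CD was -0.52 ± 0.15 (edgeR, adjusted p = 0.851), against -0.17 ± 0.22 with it. The CD mice ran from 125.9 to 227.6 CPM. No other member had a mouse set apart in this way.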

How the results depend on the processing

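For FD against CD, 0 members were called under each alternative run, and their median log2 fold change lay between 0.0003 and 0.0625 (0.0027 to 0.0573 with 1 mouse left out at a time). Among all genes the 14 calls became 1 with at least 10 counts in every mouse, 8 with filterByExpr, 25 with the replicate block, 2 in males alone, 1 in females alone, 22 with reads outside genes as covariate, 5 without the 2 mice highest in choroid plexus markers, and 3 to 12 with 1 mouse left out. With the replicate block the smallest adjusted p among members was that of Zim1 (0.123, log2 fold change 0.58), and the block changed no call of a member but brought 12 instead of 1 below an unadjusted p of 0.05. For males against females, DESeq2 called 2043 genes and 6 members, a filter of at least 1 count in total 2645 and 11, at least 10 counts in every mouse 1680 and 5, reads outside genes as covariate 9 and 0, and meningeal markers as covariate 253 and 2. With 1 mouse left out these were 18 to 3244 genes and 0 to 12 members. The interaction called 10 genes and 1 member (Ndn, -0.62) with a filter of at least 1 count in total, and 0 to 1 genes and 0 members with 1 mouse left out. The sign of the difference turned under at least 1 alternative for 19 of the 39 members between the diets (2 to 7 per alternative) and for 20 between the sexes (0 to 8). These included, between the diets, Meg3 without CD female 1 (-0.0052, within a range up to 0.2381 with 1 mouse left out), Ndn (0.0082) and H19 in females alone, Asb4 in males alone, Usp29 with the replicate block, and Dlk1 (-0.029) without the 2 mice highest in choroid plexus markers, which were also its lowest. Between the sexes they included Meg3 (-0.0399) and Mirg with reads outside genes as covariate, and Igf2 with meningeal markers as covariate. The cause was not tested. Depth limits H19, Asb4, Mkrn3, Slc38a4 and Airn, whose counts fell to 12 or fewer in at least 1 mouse.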
